A study of Mus musculus with 4 samples.

Results

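The genes described here make, recycle and restrain the polyamines in the mouse testis. They are the 10 genes Odc1, Oaz1, Oaz2, Oaz3, Azin1, Azin2, Amd1, Srm, Sms and Sat1, taken by name from a deposited table of 22073 gene identifiers. All 10 were in the table, and 9 of them passed the filter on low values (a 4-library mean of 1 FPKM or more). FPKM, the deposited unit, counts fragments normalised for transcript length and library size. Libraries came from the right testis of adult KM mice. The hemicastrated group (2 libraries) had lost the left testis before puberty, and the control group (2 libraries) had a sham operation at that age. The sources used here give no genetic modification and no ages in days for either group. The design text gives 2 mice per group while the protocol text gives more, and the labels call the molecule genomic DNA although the protocol describes poly(A) RNA.

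Polyamines (putrescine, spermidine and spermine) are small positively charged molecules that bind RNA, DNA and chromatin, and dividing and differentiating cells need them. Ornithine decarboxylase (Odc1) makes putrescine, and spermidine synthase (Srm) and spermine synthase (Sms) extend it with aminopropyl groups supplied by S-adenosylmethionine decarboxylase (Amd1). Antizymes (Oaz1, Oaz2 and Oaz3) bind the decarboxylase and lower its activity, antizyme inhibitors (Azin1 and Azin2) bind the antizymes instead, and the acetyltransferase Sat1 marks spermidine and spermine for export or oxidation. Oaz3 is known as the antizyme of haploid male germ cells, and Azin2 is also known for expression in testis.

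What sets the antizymes apart is in their messenger RNA: a stop codon interrupts the coding sequence, and polyamines favour a shift of the ribosome into the next reading frame. The sequence around that stop is shown for the 3 antizymes, since Oaz3 dominated the family's RNA and can be set beside its relatives. Each run is 61 bases of GENCODE M21 transcript (GRCm38), 5′ to 3′ on the gene's strand, with the last codon of the first frame and the stop codon in capitals. The stretches lie in coding exons at chr10:80828265-80828325 (Oaz1, plus strand), chr9:65686242-65686302 (Oaz2, plus strand) and chr3:94436004-94436064 (Oaz3, minus strand).
Oaz1: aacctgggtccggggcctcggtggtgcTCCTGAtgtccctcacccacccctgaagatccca
Oaz2: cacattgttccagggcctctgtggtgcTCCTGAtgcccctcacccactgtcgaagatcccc
Oaz3: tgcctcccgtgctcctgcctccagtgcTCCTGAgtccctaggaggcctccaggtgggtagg

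All 3 genes carried the same codon pair, TCC followed by the stop TGA. The annotation writes the shift as coding exons that skip 1 base, the T of that stop, in 3 of 6 coding models of Oaz1, 2 of 4 of Oaz2 and 5 of 6 of Oaz3. Compared position by position from the stop codon, without gaps, Oaz1 and Oaz2 matched at 49 of the 61 bases (80.3%). Oaz3 matched each of them at 21 (34.4%), with a longest identical run of 10 bases. An inserted or lost base lowers such a count, so it does not measure how far the sequences have diverged. Among the 5 Oaz3 models, 3 open with a CTG codon and 2 with ATG. The deposited values are 1 per gene, so models that differ in this way were not separated.

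Beside these genes, markers of testis cells were present in all 4 libraries. The 12 haploid germ cell markers summed to 22350 to 24680 FPKM, and of the other testis lists 8 of 8 spermatocyte, 7 of 7 Leydig, 8 of 10 Sertoli and 5 of 7 spermatogonial genes reached the filter. An epididymis list differed between the groups: 5 of its 7 tested genes (18 listed) fell, beside 1.19% of all tested genes. Its summed level was 1073 and 1426 FPKM in control mice against 211 and 247 in the hemicastrated libraries. Of the listed epididymal genes, Lcn5, Lcn8 and Lcn10 stood at 0 in all 4 libraries, and Crisp4, Adam7, Gpx5, Lcn12, Spint4 and Spag11b at 0 in both hemicastrated libraries but not in both controls. All 6 peritubular and smooth muscle markers were lower in both hemicastrated libraries, and 5 of them fell past the test. Over all tested genes these shares were 24.8% and 1.19%. The summed FPKM of all genes was 343105 to 353135 per library. Read depth is unknown, so the only error available is the spread between both libraries of each group. P-values here concern the spread between these samples. For limma, each gene's variance was also drawn towards a trend over all tested genes.

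The order of levels was dominated by the germ cell antizyme. Oaz3 (ENSMUSG00000028141, chromosome 3, 94432414 to 94443915, minus strand, GRCm38) stood at 1681 and 1621 FPKM in control mice and at 1453 and 1601 in the hemicastrated libraries. Only 7 genes in each control and 8 genes in each hemicastrated library of the whole table had a higher value. Oaz3 alone made up 84.7% to 87.1% of the summed FPKM of the 10 genes and 96.6% to 97.0% of that of the 3 antizymes. Second came Azin2 (ENSMUSG00000028789, chromosome 4, 128930233 to 128962442), at 164 and 138 FPKM in control mice against 151 and 121. Both were the most abundant member of their own family in every library.

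The remaining levels were lower by an order of magnitude or more than Oaz3. Oaz2 ranged from 34.3 to 39.9 FPKM over the 4 libraries and Odc1 from 27.5 to 33.1. Ranges of Oaz3, Azin2, Oaz2 and Odc1 did not overlap with those of the next gene in the order. Azin1 (15.2 to 17.5 FPKM), Oaz1 (12.7 to 19.2) and Sat1 (2.50 to 20.3) each overlapped with the next, which for Sat1 was Srm (4.53 to 9.40). Amd1 followed at 3.64 to 4.16 FPKM, below every Srm value, and Sms ended the order at 0.151 to 0.485.

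**Figure D1:**
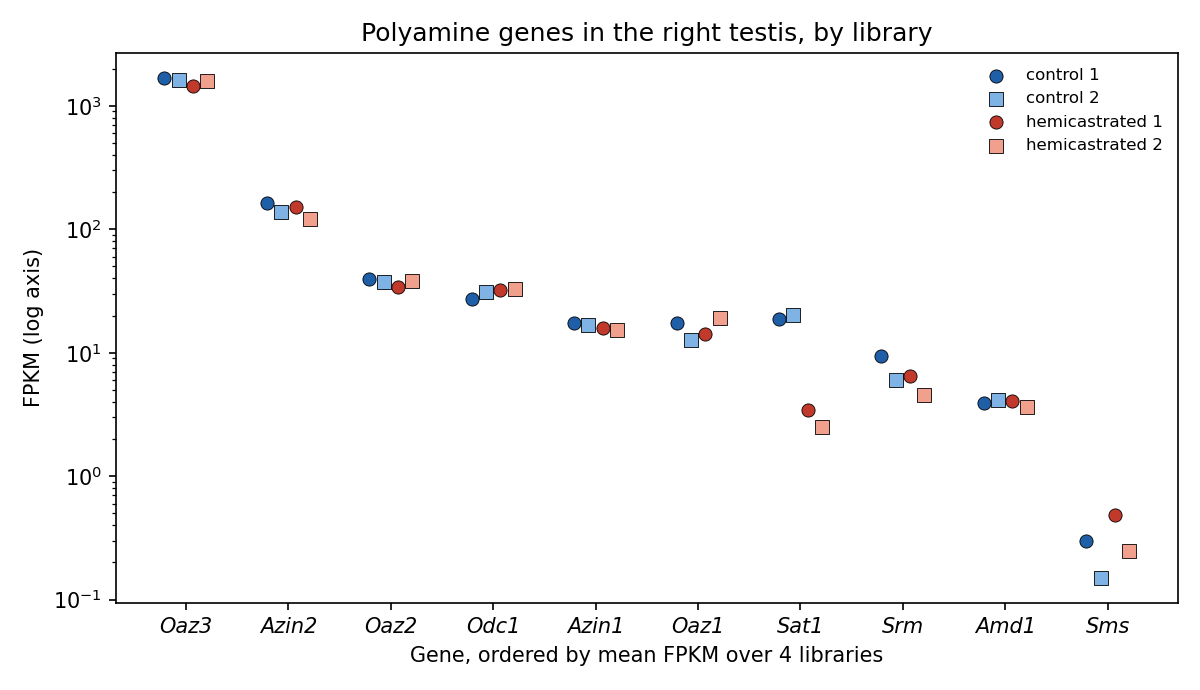
FPKM of the 10 polyamine genes on a log axis, with 1 point per library (circles: replicate 1, squares: replicate 2; blue: control, red: hemicastrated) and genes ordered by their mean over the 4 libraries. Oaz3 lies at 1453 to 1681 FPKM and Sms at 0.151 to 0.485, and Sat1 is the gene whose red points, 3.47 and 2.50, lie far below its blue points, 18.7 and 20.3.

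Sat1 fell after hemicastration, and it was the single called gene of the set. Sat1 (ENSMUSG00000025283, chromosome X, 155213132 to 155216449, minus strand) had 18.7 and 20.3 FPKM in control mice and 3.47 and 2.50 in the hemicastrated libraries. Both hemicastrated values lay below both control values, at 17.8% and 12.9% of the control mean. The group means were 19.5 ± 1.1 and 2.99 ± 0.68 FPKM (SD, n = 2 each), a 6.52-fold lower level. On the log2(FPKM + 1) scale the change was -2.37 (SE 0.15, 95% interval -2.73 to -2.01, limma adjusted p = 0.000837), which placed it at rank 38 by p and rank 49 by size of fall among 11343 tested genes. Of the 9 tested members 1 fell and 0 rose, beside 1.19% of all tested genes called lower and 0.106% called higher. The call held in all 13 alternatives, with adjusted p from 6.72e-05 to 0.0249.

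The marker lists with genes called lower, as Sat1 was, were those of epididymis and smooth muscle. The summed macrophage list was also lower, at 51.1 and 49.1 FPKM in control mice against 43.1 and 37.9. Its largest part was Lyz2 (28.5 and 29.0 FPKM against 21.1 and 20.8), and the groups of C1qa, C1qb and Cd68 overlapped. The red blood cell list was at 33.1 and 29.7 against 29.4 and 18.9, and no gene of either list was called. The 18 epididymal genes together stood at 16.9% and 19.7% of their control mean, and Sat1 at 17.8% and 12.9%. Cst8, named after its values were seen, was at 169 to 242 FPKM with no drop after hemicastration. It made up most of the hemicastrated sums of that list, at 206 and 242 FPKM. Without it, the other 17 epididymal genes summed to 904 and 1226 FPKM in control mice against 4.89 and 5.03. The hemicastrated sums were 0.459% and 0.472% of the control mean. Most of that control sum came from Crisp1 (545 and 786 FPKM) and Cd52 (322 and 400). Among all 18 listed genes, 8 were lower in both hemicastrated libraries than in both controls, beside 24.8% of all tested genes. Of these 8, Crisp4, Gpx5 and Spag11b were under the filter. Rnase10, Defb41 and Ros1 were among the listed genes whose groups overlapped. The 6 smooth muscle genes together were at 35.1% and 31.8% of their control mean. Haploid germ cell markers, by contrast, summed to 108% and 107%. Most of that sum came from Prm1, Prm2, Tnp1 and Tnp2, and the median log2 fold change of the 12 genes was 0.02. Whether RNA of those tissues took part in the fall of Sat1 was not tested, and in bulk tissue fewer cells of a type and less RNA per cell cannot be told apart.

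**Figure D2:**
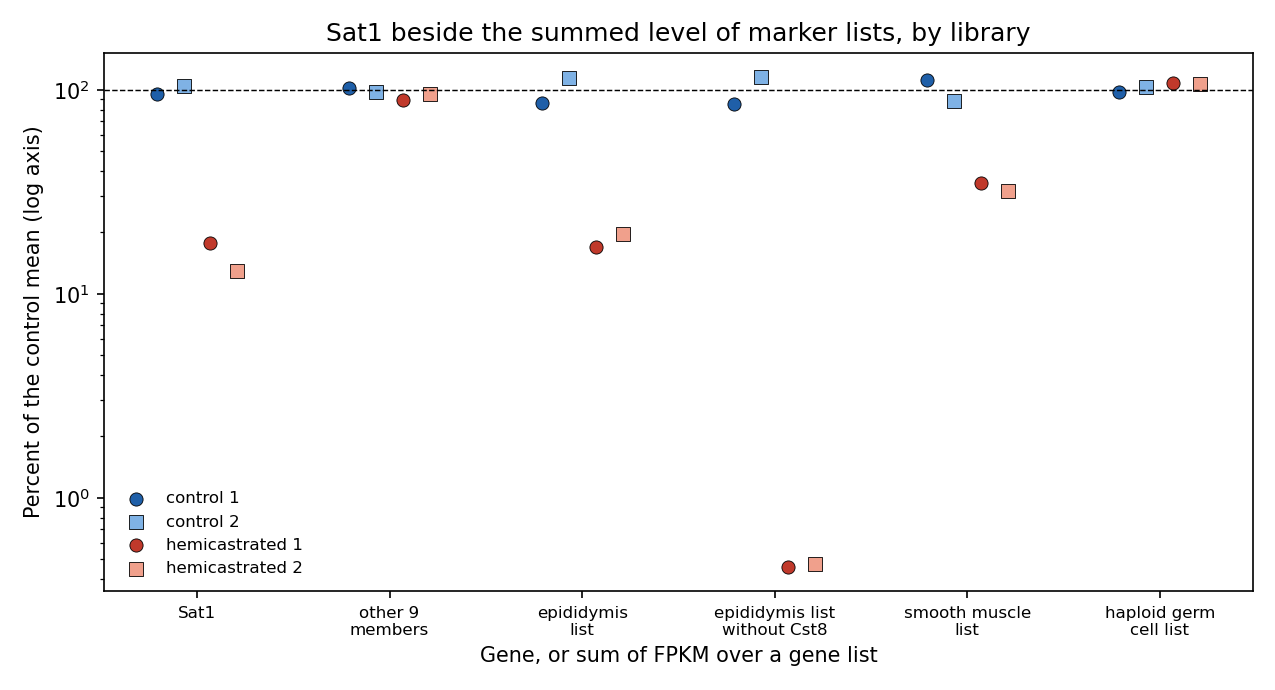
Level of Sat1, of the other 9 members and of 4 summed marker gene lists as a percentage of the control mean (log axis, dashed line at the control mean), 1 point per library (circles: replicate 1, squares: replicate 2; blue: control, red: hemicastrated). Sat1 lies at 17.8% and 12.9%. The 18-gene epididymis list lies at 16.9% and 19.7%, and most of its hemicastrated sums is Cst8. Without Cst8, left out after its values were seen, that list stands at 0.459% and 0.472%, and its control sum is mostly Crisp1 and Cd52. The summed smooth muscle list lies above Sat1 at 35.1% and 31.8%, and the other 9 members stand at 89.4% and 95.9%.

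Genes with values like those of Sat1 were picked by the sum of absolute log2(FPKM + 1) differences over the 4 libraries, a choice made after its values were seen. Nearest was Wfdc6b, of the whey acidic protein domain family, at 16.7 and 19.2 FPKM against 2.74 and 3.13. Next were the surface protein gene Ly6a (16.7 and 16.8 against 4.76 and 2.11) and the cytochrome gene Cyb561 (20.1 and 21.8 against 4.95 and 4.38). All 3 were called lower themselves, which is no separate result since they were picked by these values. Likeness over 4 libraries is a description of these values only.

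Sat1 has a second layer of control that a gene-level value hides. A transcript with an extra exon is annotated as a target of nonsense-mediated decay, and this exon is known to be skipped when polyamines are high. In GENCODE M21 the exon is 110 bases at chrX:155215121-155215230, and only its first 11 bases are coding before a stop. That opening, with the stop codon in capitals, is shown since it is what separates the 2 kinds of Sat1 transcript.
Sat1 exon start: gttacagtctcTAG

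Of the 7 annotated Sat1 transcripts, 2 are coding and 1 is of this kind, and the single FPKM value does not separate them. Sequence shared with other genes was small for Sat1: 6.86% of the 50-base stretches of its coding transcripts also occur in another gene.

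The other acetyltransferase genes did not pass the test. Satl1, a relative of Sat1 that is also on the X chromosome, was at 8.39 and 8.13 FPKM in control mice against 9.34 and 8.32 (log2 fold change 0.08, 95% interval -0.20 to 0.37, limma adjusted p = 0.854). Sat2, at 4.25 and 4.14 FPKM against 2.59 and 3.71, was lower in both hemicastrated libraries but not past the threshold (log2 fold change -0.34, interval -0.74 to 0.06, limma adjusted p = 0.56). The spermine oxidase gene Smox was at 4.52 and 2.85 FPKM against 4.58 and 2.89, with overlapping groups (log2 fold change 0.02, interval -0.57 to 0.60). Paox, which oxidises acetylated polyamines, reached at most 0.335 FPKM and was not tested.

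Antizyme RNA did not pass the test in either direction. Oaz3 had a log2 fold change of -0.11 (SE 0.08, 95% interval -0.32 to 0.09, limma adjusted p = 0.707); both hemicastrated values were lower than both controls, and the groups lay close together (means of 1527 ± 105 and 1651 ± 43 FPKM, SD, n = 2 each). Oaz2 was at 39.9 and 37.4 FPKM in control mice against 34.3 and 38.0, with overlapping groups (log2 fold change -0.09, interval -0.33 to 0.14). Oaz1, the widely expressed antizyme, was at 17.5 and 12.7 against 14.1 and 19.2 FPKM (log2 fold change 0.13, interval -0.34 to 0.61). Its groups overlapped, with the lowest value in a control and the highest in a hemicastrated library. Of the 50-base stretches of Oaz1, 45.5% also occur in the pseudogene Oaz1-ps, so its level is uncertain. The ends of Oaz3 overlap Tdrkh and Mrpl9 on the opposite strand, and the library protocol describes no strand marking. Of the 50-base stretches of Oaz3, 28.6% also occur in these genes, which stood at 21.4 to 23.7 and 8.57 to 12.1 FPKM. How reads of the shared stretches were divided was not tested.

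Neither the decarboxylase nor an antizyme inhibitor passed the test. Odc1 (ENSMUSG00000011179, chromosome 12, 17544794 to 17551505) was at 27.5 and 31.2 FPKM in control mice against 32.5 and 33.1. Both hemicastrated values were the higher ones, with a log2 fold change of 0.16 (SE 0.10, 95% interval -0.08 to 0.40, limma adjusted p = 0.658). Azin1 was at 17.5 and 16.7 FPKM against 15.7 and 15.2, lower in both hemicastrated libraries (log2 fold change -0.14, interval -0.37 to 0.10), and Azin2 overlapped between the groups (log2 fold change -0.15, interval -0.49 to 0.18). Neither inhibitor passed the threshold (limma adjusted p = 0.698 and 0.766). Odc1 shares 42.2% of its 50-base stretches with 16 other annotated genes, most of them processed pseudogenes, and Azin2 shares none.

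Groups without overlap were not rare in this comparison. Over all tested genes 24.8% were lower and 16.3% higher in both hemicastrated libraries than in both controls. Among the 9 tested members 3 were lower in this sense (Sat1, Oaz3 and Azin1) and 1 higher (Odc1). The median log2 fold change of the 9 was -0.11, beside -0.03 over all tested genes. Without Sat1 the log2 fold changes ran from -0.41 to 0.16, with adjusted p from 0.618 to 0.927.

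**Figure D3:**
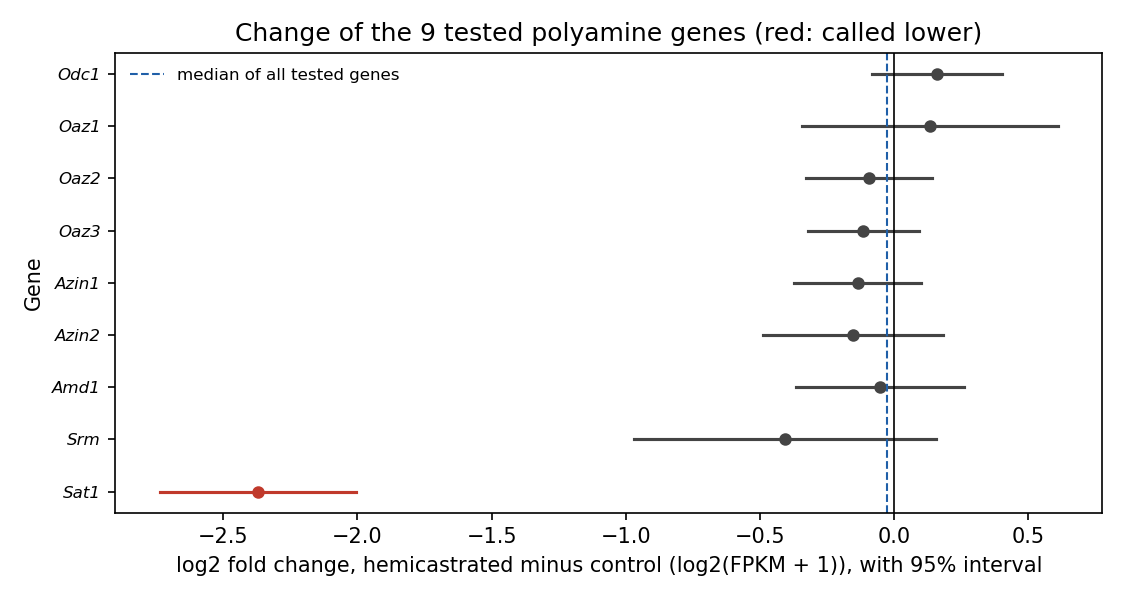
Log2 fold change (log2(FPKM + 1), hemicastrated minus control) of the 9 tested polyamine genes, with the 95% interval of the limma fit and the median of all tested genes as a dashed line. Sat1 at -2.37 lies apart, and the intervals of the other 8 genes include 0.

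The genes of spermidine and spermine synthesis had low FPKM values. Srm was at 9.40 and 6.01 FPKM in control mice against 6.50 and 4.53, with overlapping groups (log2 fold change -0.41, SE 0.23, 95% interval -0.97 to 0.16, limma adjusted p = 0.618). Amd1 was at 3.90 and 4.16 FPKM against 4.07 and 3.64 (log2 fold change -0.05, interval -0.37 to 0.26). Its sequence is shared almost throughout: 86.0% of its 50-base stretches occur in other genes, above all in the near-identical coding copy Amd2, so the split of reads between the pair is uncertain. Amd2 itself did not reach the filter. Sms, on the X chromosome like Sat1, was at 0.298 and 0.151 FPKM in control mice and 0.485 and 0.246 in the hemicastrated libraries, under the filter, and 28.1% of its stretches occur in other genes.

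Ratios between members within a library, on the log2(FPKM + 1) scale, gave no call. With 2 libraries against 2 the exact two-sided permutation test cannot go below p = 0.33, and adjusted over the 7 ratios no p was under 0.78. As ratios of FPKM, Oaz3 stood 96.1 and 128 times above Oaz1 in control mice against 103 and 83.4 times in the hemicastrated libraries. Azin2 stood 9.39 and 8.22 times above Azin1 in control mice and 9.63 and 7.92 times in the hemicastrated libraries. Odc1 to the summed antizymes was 0.0158 and 0.0186 against 0.0216 and 0.0200, higher in both hemicastrated libraries (log2 difference 0.27, SD within groups 0.13, exact permutation p = 0.33). Amd1 to Odc1 was 0.142 and 0.134 against 0.125 and 0.110, lower in both hemicastrated libraries (log2 difference -0.21, SD within groups 0.09, exact permutation p = 0.33). Sms to Srm also separated the groups (log2 difference 0.56), but moved with the pseudocount because Sms is so low. Ratios with Oaz1, Odc1 or Amd1 are uncertain too, since 45.5%, 42.2% and 86.0% of their 50-base stretches occur in other genes.

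Genes with values like those of Oaz3 and Odc1 were sought by the same distance, so their calls are again no separate result. For Oaz3 they were the mitochondrial oxidase gene mt-Co1 (1541 and 1428 FPKM in control mice against 1414 and 1446), the spermiogenesis gene Meig1 (1319 and 1610 against 1766 and 1936) and Dbil5, a testis relative of the acyl-CoA binding proteins (1304 and 1277 against 1372 and 1368). None of these 3 was called. For Odc1 they were the histone methyltransferase gene Nsd2, the centrosomal gene Cspp1 and Cep170, all between 27.3 and 33.4 FPKM and none called.

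Other genes of polyamine metabolism came from a list of 31, of which 22 were tested. Of these 22, 1 fell and 0 rose, with 13 negative and 9 positive log2 fold changes and a median of -0.11 (all tested genes -0.03, of which 1.19% were called lower). The gene that fell was Atp13a4, which encodes a P-type ATPase related to the lysosomal polyamine exporter Atp13a2. It was at 4.61 and 3.08 FPKM in control mice against 0.995 and 0.457, without overlap (log2 fold change -1.49, SE 0.23, limma adjusted p = 0.0415). This call was lost in 8 of the 12 alternatives in which Atp13a4 was tested, with adjusted p up to 0.244 without control 1 and 0.109 without control 2. The epididymal and smooth muscle lists moved with it too, and their part in it was not tested.

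Transport genes besides Atp13a4 were not called. Slc22a16, a testis carnitine carrier that also takes polyamines, was at 91.9 and 82.8 FPKM in control mice against 90.0 and 92.1. Slc3a2, the heavy chain of several amino acid transporters, was at 61.2 and 47.1 against 42.8 and 47.4 FPKM (log2 fold change -0.25, 95% interval -0.59 to 0.09). Atp13a2 was at 6.62 and 4.83 against 6.05 and 7.62 FPKM. The vesicular polyamine carrier gene Slc18b1, named after its values were seen, was at 1.24 and 3.33 FPKM against 0.896 and 1.04, and its control libraries were further apart than the lower control was from the hemicastrated values.

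In the supply of precursors no tested gene was called. Ornithine aminotransferase Oat was at 17.1 and 13.2 FPKM against 14.5 and 13.3, and the mitochondrial arginase Arg2 at 5.56 and 4.28 against 3.74 and 3.43 (log2 fold change -0.36, interval -0.73 to 0.01, limma adjusted p = 0.486). The arginine carrier gene Slc7a1 was at 3.01 and 2.73 against 2.06 and 2.86 FPKM. Liver-type arginase Arg1 reached at most 0.572 FPKM in any library. Mat2a, which makes S-adenosylmethionine, was at 23.2 and 21.6 FPKM against 24.5 and 24.8 (log2 fold change 0.13, interval -0.10 to 0.36). Apip and Enoph1, of the salvage of methylthioadenosine, had log2 fold changes of 0.02 and 0.01. Adi1 of the same route, named after its values were seen, was at 4.62 and 3.82 against 3.01 and 2.90 FPKM, with an interval of -0.73 to -0.06 and a limma adjusted p = 0.389.

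Spermidine also serves to modify the translation factor Eif5a with hypusine. Eif5a was at 280 and 274 FPKM in control mice against 277 and 233 (log2 fold change -0.12, interval -0.37 to 0.12). The hypusine enzymes Dhps and Dohh had log2 fold changes of 0.02 (interval -0.26 to 0.29) and 0.0004 (interval -0.43 to 0.43). All 4 genes of this route were tested and none was called.

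**Figure D4:**
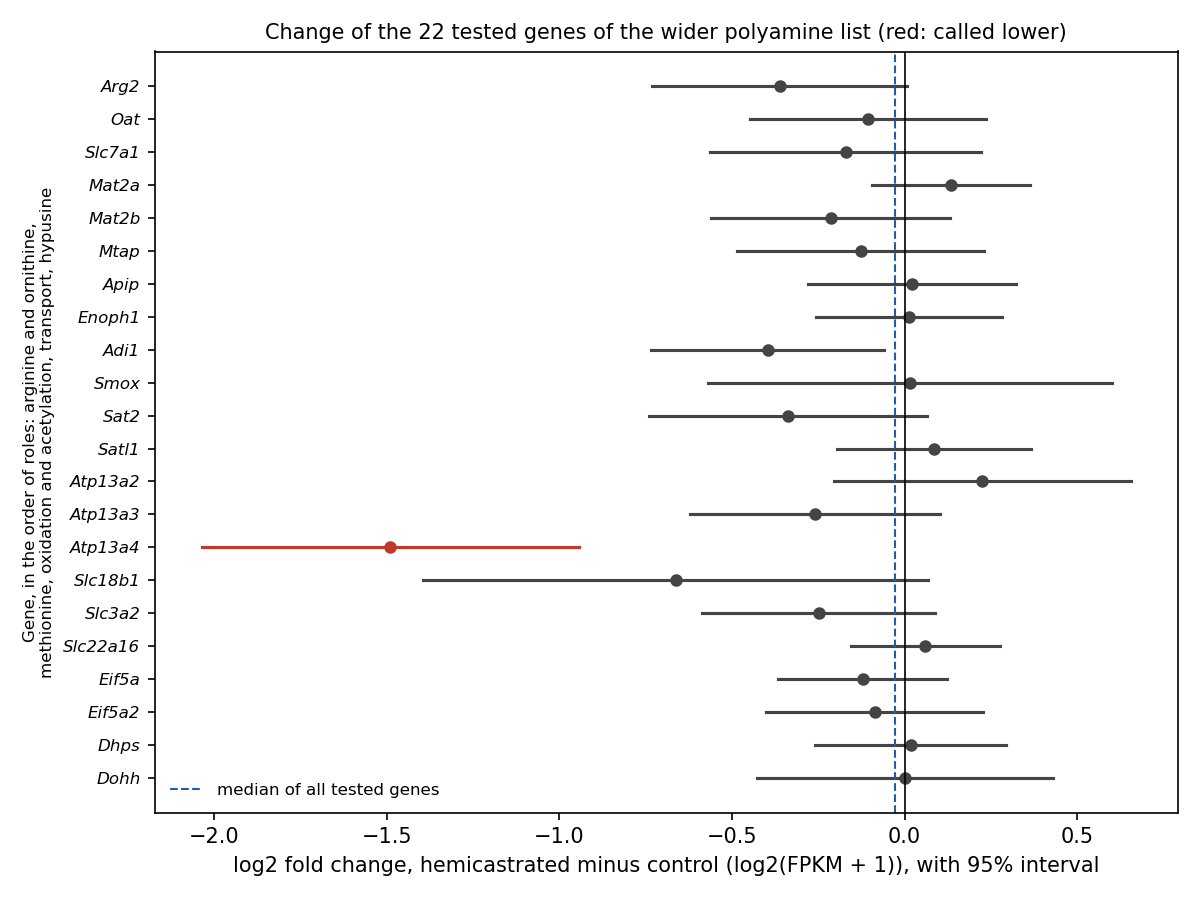
Log2 fold change (log2(FPKM + 1), hemicastrated minus control) with the 95% limma interval for the 22 tested genes of the wider list, in the order of their roles, and the median of all tested genes as a dashed line. Atp13a4 at -1.49 is the called gene, and of the other 21 only the interval of Adi1 leaves out 0.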

How the data were processed

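The protocols describe paired-end sequencing and no strand marking, after random primers had served to copy the poly(A) RNA into DNA. The 4 libraries were treated here as 4 mice, although the sources disagree on the number of mice per group. The authors deposited 1 FPKM value per gene and library. TopHat2 (2.0.11), Cufflinks (2.2.1) and the build GRCm38 are listed, without roles, by the submitters' processing notes, and the sources used here do not give the annotation. FPKM keeps no read counts, so no counting interval is given. Symbols and positions came from GENCODE M21 for 21883 of 22073 identifiers. The 11343 genes whose mean was 1 FPKM or more were compared on log2(FPKM + 1) by limma (3.58.1, under R 4.3.3) using a variance trend, two-sided, Benjamini-Hochberg adjustment over all tested genes and a threshold of 0.05. The test was checked on simulated data drawn from its own variance model. That check does not cover departures of the real values from the model. Members, lists and the naming rule (all members, the called genes and the 3 most abundant tested genes per role of the wider list, and the 3 genes nearest to Odc1 and Oaz3) were chosen with earlier results of these data known. Alternatives were 13: pseudocount, filter, scaling, variance model, replicate block and leaving out each library. Shared sequence was counted as 50-base stretches found in transcripts of other genes on either strand.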

Additional observations from a re-analysis of the deposited data

How the results depend on the processing

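Sat1 kept its direction and its call in all 13 alternatives, with log2 fold changes from -2.68 to -1.62, and no other member was called in any. The direction was not constant for Oaz1, Azin2 and Amd1, none of them called. The wider list had 0 called genes with a pseudocount of 0.1, with no filter, with a mean of at least 5 FPKM (where Atp13a4 was not tested), under quantile normalization, in TPM and without the trend, and 0 to 1 when a library was left out. Its median was -0.046 with no filter, 0.016 with a mean of at least 5 FPKM, -0.047 under quantile normalization and -0.19 to -0.062 when a library was left out. The log2 difference of the ratio of Sms to Srm was 0.97 with a pseudocount of 0.1 and 0.30 with 5. Over all genes, 12 rose and 135 fell. The count of higher genes was 3 with no filter, 7 with a mean of at least 5 FPKM (63 lower) and 0 to 26 when a library was left out (78 to 156 lower). The cause of these shifts was not tested. Titles share replicate numbers, but same-numbered libraries deviated together with a correlation of only 0.01 across genes. With 2 libraries per group, this correlation cannot settle whether the numbers mark a pairing. A replicate block gave 30 higher and 167 lower genes and changed no call among the members or the wider list. Depth is unknown, so how far it limits Sms, Arg1 and Paox, all under 1 FPKM, is not known.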
